A study of Mus musculus and Macaca nemestrina with 20 samples.

Results

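Mitochondria make most of a neuron's ATP through 5 protein complexes, I to V, in their inner membrane. Complex I (NADH dehydrogenase) and complex II (succinate dehydrogenase) pass electrons to ubiquinone, complex III (the cytochrome bc1 complex) passes them on to cytochrome c, complex IV (cytochrome c oxidase) gives them to oxygen, and complex V (ATP synthase) uses the proton gradient so made. Most subunits are encoded in the nucleus, while a small set, outside complex II, is encoded in mitochondrial DNA. Sensory neurons of the dorsal root ganglion (DRG) carry mitochondria along very long axons and depend strongly on this chain.

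The nuclear-encoded subunits were taken by gene symbol (Nduf followed by a, b, c, s or v and a number, Uqcr, Sdha to Sdhd, Cox4 to Cox8, and Atp5), which gave 90 of 29766 genes in the mouse tables: 41 of complex I, 4 of complex II, 8 of complex III, 19 of complex IV and 18 of complex V. Another 13 mouse rows were left out as pseudogenes by their -ps suffix. Cox6c2, Ndufa11b, Ndufb4c and Ndufs6b lack this suffix and stayed among the 90, although the gene annotation calls them processed pseudogenes. The same patterns in capitals gave 60 of 35194 genes in the monkey tables, with 38 of complex I, 4 of complex II and 18 of complex V, so complexes III and IV were not analysed here in monkeys. Assignment by symbol places Ndufa4 in complex I, although its protein is now known as a subunit of complex IV, and includes accessory factors such as Atp5if1, the ATP synthase inhibitor.

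The tissue was DRG, profiled by bulk RNA sequencing. Knockout mice were labelled ADAM17 KO (7 libraries), ADAM17 being a protease that cuts membrane-bound signalling proteins free, and their controls were labelled ADAM17 flox (7 libraries). The labels used here give neither a Cre driver nor the deleted tissue, and no strain, age or number of animals in a library. By label, batch 1 comprised knockout 1 to 4 with flox 1 to 3, and batch 2 comprised knockout 5 to 7 with flox 4 to 7. In pig-tailed monkeys (Macaca nemestrina), 3 libraries came from DRG that serve skin treated with SADBE (squaric acid dibutyl ester), a contact sensitiser, and 3 from DRG of control skin given vehicle. Whether the SADBE and vehicle ganglia came from the same animals is not given there.

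In batch 1, totals were 12.1 to 14.7 M counts (M, mega) in knockout libraries and 46.9 to 52.1 M in flox libraries, so the knockout values there carry more counting error. Batch 2 totals were 27.9 to 30.8 M for knockout, against 30.9 to 36.0 M for flox, and in monkeys 9.02 to 22.4 M for SADBE and 13.7 to 27.1 M for vehicle. Adam17 itself had 16.1 to 34.6 CPM in knockout and 17.6 to 33.3 CPM in flox libraries, so its level in whole ganglia does not check the genotype. Knockout libraries 6 and 7 carried Y-linked transcripts, with 70.7 and 81.3 CPM of Ddx3y against at most 0.194 CPM in every other mouse library. The summed level of 10 skeletal muscle markers was highest in knockout 4 among knockout libraries (3740.0 CPM) and in flox 6 among flox libraries (5712 CPM). Against the tissue label, 8 sensory neuron markers were checked; none was at 0 in a mouse group, and their summed level was 4167 to 9009 CPM in knockout and 2825 to 6663 CPM in flox libraries.

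The subunits were abundant. Together they made up 7.14% to 10.2% of all transcripts (by TPM, an abundance corrected for transcript length and library size) in knockout mice and 6.95% to 9.12% in flox mice. In flox DRG the median member of complex V stood at 1044 TPM, of complex III at 885 TPM, of complex IV at 865 TPM, of complex I at 482 TPM and of complex II at 222 TPM. TPM is a level per transcript length, so it can be compared between genes, and it was rescaled to the same sum in each library.

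The most abundant member of complex V, Atp5mk (the small DAPIT subunit in the membrane part of ATP synthase), averaged 8436 ± 2871 TPM in knockout and 5634 ± 948 TPM in flox DRG (SD, n = 7 each, both batches together). Ndufa4, the most abundant under a complex I name, averaged 5782 ± 3134 TPM in knockout and 4091 ± 973 TPM in flox. Cox4i1, the ubiquitous isoform of cytochrome c oxidase subunit 4, led complex IV with 2101 ± 499 TPM in knockout and 2416 ± 614 TPM in flox. Uqcrq led complex III with 2028 ± 500.4 TPM in knockout and 1905 ± 478 TPM in flox, and Sdhb, the iron-sulfur subunit of succinate dehydrogenase, led complex II with 459 ± 145 TPM in knockout and 528 ± 189 TPM in flox. For each of these 5 genes the genotype means lay closer together than the sum of their SDs, and the SDs hold the difference between batches.

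Too low to be tested were 5 members: Cox6c2, Cox8c, Ndufa11b, Ndufb11b and Ndufs6b, none of which passed 1.73 TPM in any library. Of the isoforms known from other tissues, flox DRG had 4.51 ± 2.24 TPM of Cox4i2, an isoform known for oxygen-dependent use in lung, 23.5 ± 9.70 TPM of Cox6b2, known from testis, and 1.02 ± 0.925 TPM of Cox7b2 (SD, n = 7). The muscle isoforms stood higher and varied more widely, at 173 ± 60.6 TPM for Cox7a1, 69.3 ± 74.1 TPM for Cox8b and 35.0 ± 36.4 TPM for Cox6a2.

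The mouse comparison asks which subunits differ in DRG between knockout and flox mice, and whether the 5 complexes differ alike. The medians of the complexes lay close to 0. The median log2 fold change, knockout over flox with batch in the model, was -0.03 for complex I, 0.00 for complex II, 0.14 for complex III, -0.02 for complex IV and 0.04 for complex V, against -0.01 over all genes tested. The pooled SD of a complex's median between libraries of one group and batch was 0.17, 0.12, 0.15, 0.22 and 0.17 for complexes I to V, on the same log2 scale. In absolute value each median fold change was smaller than that SD. The SD describes a single library and is wider than the error of a difference between group means. Lying within it therefore does not show that a complex was unchanged, and the medians were not tested. With library totals in place of TMM scaling the median of all genes shifted to -0.14 and that of complex II to -0.13. Of the 85 members tested, 41 had a positive and 44 a negative fold change.

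Single members did change. The quasi-likelihood test of edgeR, with p-values adjusted over all 15654 genes by the Benjamini-Hochberg method and a threshold of 0.05, called 9 members higher and 1 lower in knockout. That is 10.6% higher, where the test called 7.97% of all genes higher, and 1.18% lower, where it called 7.51% lower. The share of members called higher was thus close to that of all genes. The direction of the calls depended on the scaling: library totals in place of TMM gave 2 higher and 5 lower, and limma on log2(TPM + 1) gave 10 higher and 10 lower. Complex I held 6 of the 9 higher members, among them the processed pseudogene Ndufb4c, and the lower one, out of 38 tested. Complexes III, IV and V held 1 higher member each, out of 8, 17 and 18. In complex II 0 of 4 were called, 0 of 4 had an unadjusted p under 0.05 in edgeR, and DESeq2 and limma-voom called 0 of 4 too.

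**Figure D1:**
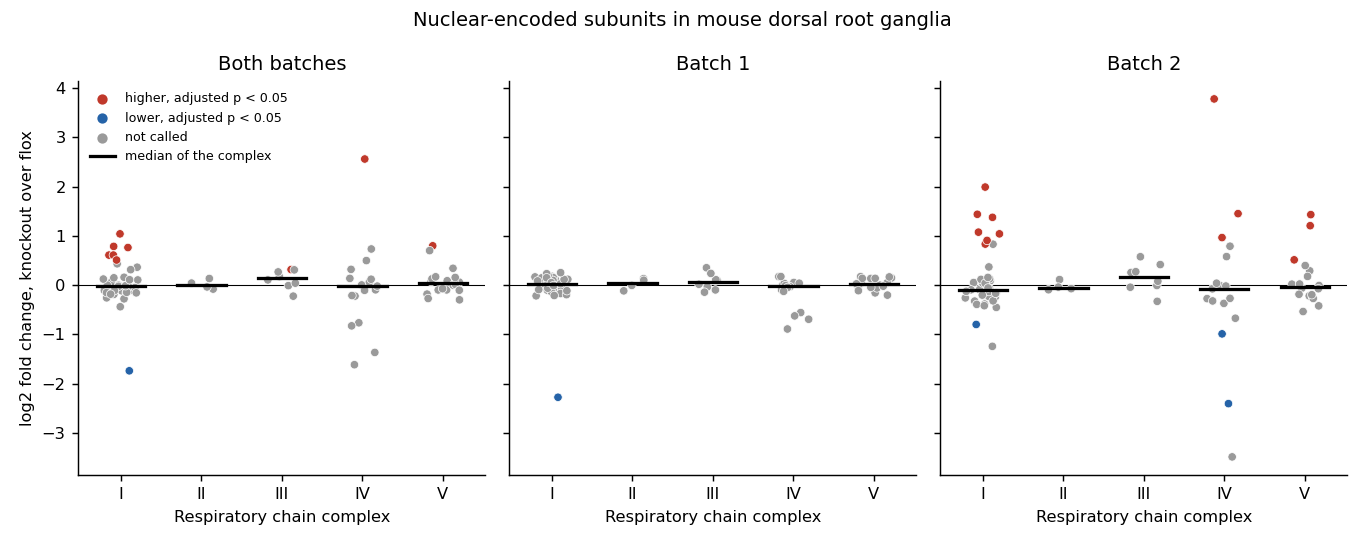
Each point is 1 nuclear-encoded subunit, with the log2 fold change of knockout over flox on the vertical axis and the complex on the horizontal axis, for both batches together, batch 1 and batch 2; red and blue points were called higher and lower by edgeR (adjusted p under 0.05) and black bars are medians. The medians stay near 0 in all 3 panels, while called members appear mainly in batch 2, 13 higher and 3 lower.

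Of the 9 members called higher over both batches, 4 were accessory subunits of complex I. Ndufc2, an accessory subunit of its membrane arm, had the largest fold change of complex I (1.04 ± 0.30, log2 ± SE, adjusted p = 0.0299 in edgeR). Ndufs4, an accessory subunit of the matrix arm whose loss causes Leigh syndrome, differed by 0.51 ± 0.15 and the membrane-arm subunits Ndufb2 and Ndufb4 by 0.61 ± 0.18 and 0.76 ± 0.24 (adjusted p = 0.0330, 0.0350 and 0.0440 in edgeR). Ndufa4, which bears a complex I name, differed by 0.61 ± 0.18 (adjusted p = 0.0350). Ndufb4c was also called (0.79 ± 0.24), but all of its 31-base words also occur in another gene and the annotation calls it a processed pseudogene, so its reads cannot be told from those of that gene, and its value is uncertain. Ndufb4 shares 19.1% of its words with other genes.

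Outside complex I, the higher members were Uqcrc1, the core 1 subunit of complex III (0.32 ± 0.10, adjusted p = 0.0423 in edgeR), Atp5mg, the g subunit of the ATP synthase membrane part (0.80 ± 0.25, adjusted p = 0.0407), and Cox7b2 (2.56 ± 0.68, adjusted p = 0.0186), a low-abundance paralog of Cox7b. Just outside the threshold stood Cox7b, a small structural subunit of complex IV (0.73 ± 0.24), and Atp5mk (0.70 ± 0.23), both with an adjusted p of 0.0509. The pooled calls rested on few libraries: without knockout 6 or without knockout 7, and also without flox 4, 6 or 7, the count fell to 1 higher and 1 lower. With knockout 6 and 7 both left out, 0 members were called higher (edgeR) and 1 lower, and Ndufc2 stood at 0.43 ± 0.16 (adjusted p = 0.108).

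The batches differed. Within batch 1, edgeR called 0 of 84 members higher (1.12% of all genes were) and 1 lower (1.19%, against 0.687% of all genes), which was Ndufa4l2. The called member was also the single one with an unadjusted p under 0.05; DESeq2 also called 0 higher and 1 lower, and limma-voom called 0 in either direction. The interquartile range of the members was -0.09 to 0.12 (log2 fold change).

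Within batch 2, 13 of 85 members were higher (15.3%, against 7.22% of all genes) and 3 were lower (3.53%, against 5.99%). The higher ones were 7 of complex I (Ndufc2, Ndufb4, Ndufb4c, Ndufs4, Ndufa4, Ndufb2 and Ndufb11), 3 of complex IV (Cox7b, Cox6c and Cox7b2) and 3 of complex V (Atp5mg, Atp5mk and Atp5if1). The lower ones were Ndufa3 of complex I and the muscle isoforms Cox7a1 and Cox8b of complex IV. With library totals in place of TMM, 11 were higher and 12 lower, and with limma on log2(TPM + 1), of 33 called, 21 were lower. Without knockout 6 the counts were 9 higher and 0 lower, and without knockout 7 they were 8 higher and 1 lower.

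These 2 libraries were also those with Y-linked transcripts. The other knockout library and the 4 flox libraries of batch 2 held at most 0.194 CPM of Ddx3y. Of the members with a matched position, Cox7b, Ndufb11 and Ndufa1 lie on the X chromosome, and the other members called higher lie elsewhere. Ndufa1 was not called in batch 2. It had 162, 203 and 189 CPM in knockout 5 to 7, against 300, 175, 214 and 188 CPM in flox 4 to 7. With knockout 6 and 7 both left out, which leaves 1 knockout library that is assumed to vary like the flox libraries, 1 member was higher and 2 were lower in batch 2. Ndufc2 was the higher one (1.11 ± 0.17, adjusted p = 0.00852 in edgeR), and Cox7a1 (-1.51 ± 0.33, adjusted p = 0.0321) and Ndufb8, an accessory subunit of complex I named after its value was seen, were the lower ones. Cox7b then stood at 0.64 ± 0.19, Ndufb4 at 0.62 ± 0.18, Atp5mg at 0.60 ± 0.19 and Ndufb11 at 0.25 ± 0.19 (adjusted p = 0.0810, 0.0855, 0.106 and 0.484 in edgeR). The part of the Y-linked difference in the batch 2 calls was not tested beyond this fit.

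For complex III within batch 2, with no library left out, edgeR called 0 of 8, where 7.22% of all genes were higher and 5.99% lower. Of these 8, 2 had an unadjusted p under 0.05 in edgeR. DESeq2 called 1 of 8 higher there and limma-voom called 0.

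Ndufc2 (GRCm38 chromosome 7, 97400003 to 97407802, plus strand) had the lowest adjusted p of the members in batch 2. In knockout libraries 5, 6 and 7 it had 445, 938 and 1117 CPM (counts scaled to the library total, with TMM normalization), against 236, 187, 212 and 205 CPM in flox libraries 4 to 7. The groups did not overlap, with knockout 6 and 7 far above knockout 5. The log2 fold change was 1.99 ± 0.25 (adjusted p = 0.00133 in edgeR). In batch 1 the same gene had 173, 151, 192 and 193 CPM in knockout libraries 1 to 4 and 198, 155 and 147 CPM in flox libraries 1 to 3, which overlapped fully (0.06 ± 0.15).

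Cox7b (chromosome X, 106015700 to 106022450, plus strand) was the other member with a called interaction. It had 670, 1334 and 1578 CPM in batch 2 knockout libraries 5 to 7, against 502, 372, 448 and 428 CPM in flox libraries 4 to 7, a log2 fold change of 1.45 ± 0.24 (adjusted p = 0.00528 in edgeR). In batch 1 it had 413, 434, 447 and 542 CPM in knockout and 543, 437 and 381 CPM in flox. The groups overlapped in batch 1 and not in batch 2.

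The difference between batches was itself tested, as an interaction of batch and genotype. Of the 85 members, 2 were called more positive in batch 2 (2.35%, against 0.658% of all genes) and 0 more negative (0.371% of all genes): Ndufc2 (1.90, adjusted p = 0.0122) and Cox7b (1.43, adjusted p = 0.0434 in edgeR). An unadjusted p under 0.05 was reached by 18 members; DESeq2 called 5 more positive and limma-voom 1, and both called 0 more negative. The Cox7b call was lost in 15 of 27 alternatives. With knockout 6 and 7, the libraries with Y-linked transcripts, left out no member was called, and without knockout 5 the count was 12. For every other member, an effect called in batch 2 and not in batch 1 was not shown to differ between the batches.

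**Figure D2:**
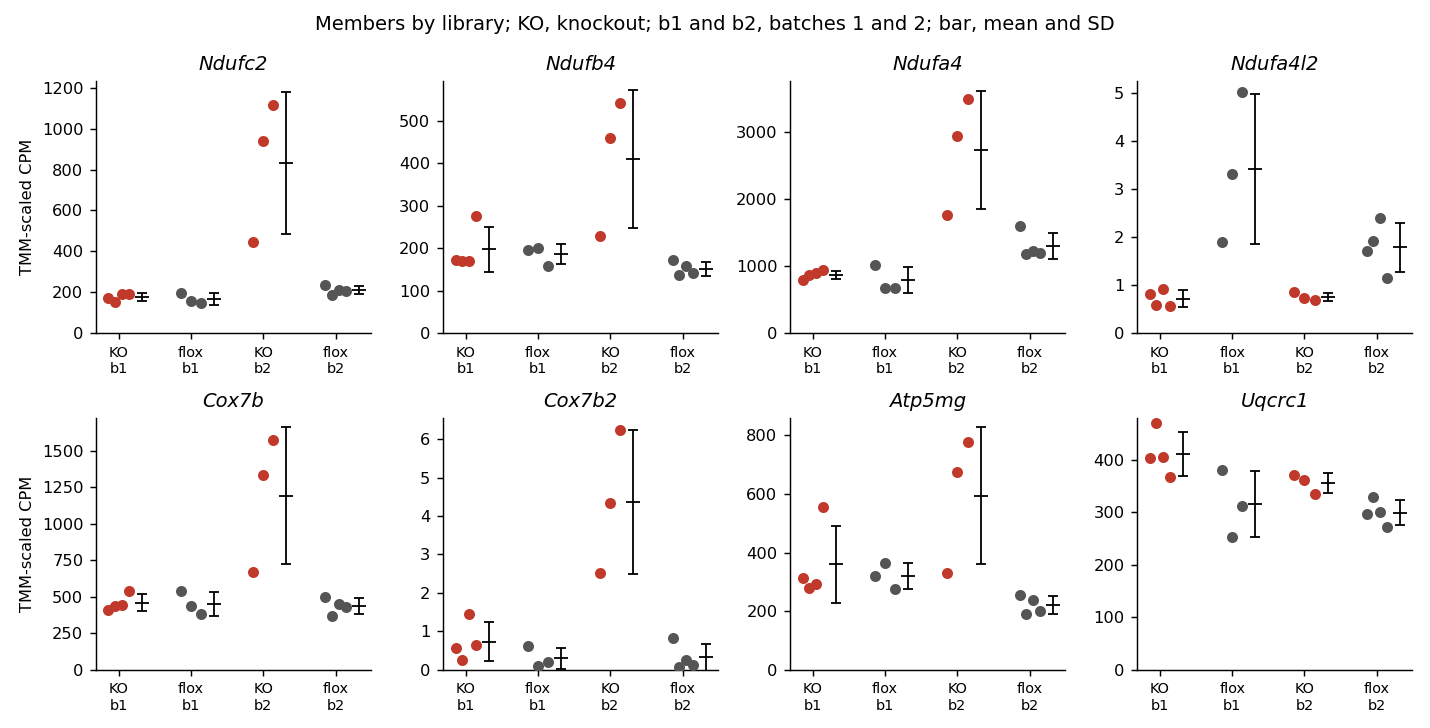
Points are single libraries and the vertical axis is CPM after TMM scaling, starting at 0, with mean and SD beside each group; knockout stands left of flox in each batch. Ndufc2, Ndufb4, Ndufa4, Cox7b, Cox7b2 and Atp5mg are high in the 3 knockout libraries of batch 2 and highest in knockout 6 and 7, Uqcrc1 differs little and in both batches, and Ndufa4l2 is low in all 7 knockout libraries.

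Ndufa4 (chromosome 6, 11900292 to 11907497, minus strand) had 1762, 2928 and 3482 CPM in batch 2 knockout libraries 5 to 7, against 1591, 1178, 1226 and 1188 CPM in flox libraries 4 to 7. The lowest knockout library stood just above the highest flox library. The log2 fold change was 1.07 ± 0.21 (adjusted p = 0.00998 in edgeR). Atp5mg (chromosome 9, 44912557 to 44920742, minus strand) had 331, 676 and 777 CPM in the batch 2 knockout libraries, against 254, 192, 237 and 202 CPM in flox (1.43 ± 0.25, adjusted p = 0.00589). In batch 1 Atp5mg had 313, 279, 293 and 557 CPM in knockout libraries 1 to 4 and 322, 365 and 277 CPM in flox libraries 1 to 3, and the single high value was knockout 4.

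Ndufb4 (chromosome 16, 37647170 to 37654453, minus strand) followed with 229, 460 and 542 CPM in batch 2 knockout libraries, against 172, 136, 158 and 141 CPM in flox (1.44 ± 0.24, adjusted p = 0.00540 in edgeR). Cox7b2, known from testis, had 2.51, 4.34 and 6.24 CPM in batch 2 knockout libraries, against 0.835, 0.0589, 0.258 and 0.125 CPM in flox. These levels are low, and the fold change of a gene near 0 (3.78 ± 0.77, adjusted p = 0.0124) depends on the prior count of the fit. The other members called higher in batch 2 were Ndufs4 (0.91), Ndufb2 (1.04), Ndufb4c (1.38), Ndufb11 (0.83), Cox6c (0.97), Atp5mk (1.21) and Atp5if1 (0.51), with adjusted p-values of 0.00640 to 0.0484.

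Across the 13 higher members, the median deviation from the flox mean of the same batch was 0.46, 1.40 and 1.63 (log2 CPM) in knockout 5, 6 and 7, against -0.16 to 0.22 in the flox libraries. These values describe members picked for being higher in those libraries. In batch 1, which did not serve to pick them, the same 13 had median deviations of -0.03, -0.05, -0.01 and 0.46 in knockout 1 to 4, against -0.19 to 0.17 in flox. Only knockout 4 stood above the flox libraries there. The 72 other members had medians of -0.31, -0.02 and -0.08 in knockout 5, 6 and 7.

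By role in complex V, the members called higher in batch 2 lay outside the catalytic and proton-conducting parts. The 5 genes of the catalytic F1 part of ATP synthase (Atp5f1a to Atp5f1e) ran from -0.42 to 0.02, and the 3 genes of its proton-conducting c subunit (Atp5mc1 to Atp5mc3) from -0.27 to -0.06, with 0 of these 8 called by edgeR, DESeq2 or limma-voom and none at an unadjusted p under 0.05 in edgeR. The other 10 members of complex V held the 3 that were higher. With 7.22% of all genes called higher in batch 2, 0 of 8 is near the share of all genes. Of the 7 catalytic core genes of complex I, edgeR called 0 in batch 2. There 3 of the 7 had an unadjusted p under 0.05 in edgeR, and DESeq2 called 1 lower. In complex III the member called over both batches, Uqcrc1, is a core subunit. This grouping was made with the values known, and no test compared the parts.

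In complex II no member was called in either batch or over both. Sdha, its flavoprotein, had 247, 380, 340.0, 266, 483, 512 and 494 CPM in knockout libraries 1 to 7, against 316, 226, 285, 408, 500, 517 and 417 CPM in flox libraries 1 to 7 (0.13 ± 0.11, adjusted p = 0.456 in edgeR). The groups overlapped in both batches. Its lowest fold change was that of Sdhc, a membrane anchor (-0.08 ± 0.09, adjusted p = 0.558).

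In complex III, Uqcrc1 (chromosome 9, 108936633 to 108949623, plus strand) was called over both batches, with like values in each. It had 403, 470, 405 and 368 CPM in knockout and 381, 254 and 313 CPM in flox libraries of batch 1, and 372, 361 and 336 CPM in knockout and 298, 328, 300.1 and 272 CPM in flox libraries of batch 2. The batch 2 groups did not overlap, and in batch 1 knockout 4 lay below flox 1. The within-batch fold changes were 0.35 ± 0.16 and 0.26 ± 0.12, neither called alone (adjusted p = 0.320 and 0.178 in edgeR), and the pooled call was lost in 19 of 29 alternatives. Uqcr11, a small subunit, had the lowest fold change of the complex (-0.22 ± 0.15, adjusted p = 0.313).

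The lower member over both batches was Ndufa4l2 (chromosome 10, 127514967 to 127517154, plus strand), a paralog of Ndufa4 known as a gene induced by hypoxia that lowers complex I activity. It had 0.817, 0.577, 0.924, 0.556, 0.850, 0.723 and 0.679 CPM in knockout libraries 1 to 7, against 1.90, 3.32, 5.02, 1.70, 1.91, 2.39 and 1.15 CPM in flox libraries 1 to 7. Every knockout library was below every flox library. These levels are low, at most 0.924 CPM in knockout, so few reads carry them. In batch 1 the knockout libraries also had lower totals (12.1 to 14.7 M against 46.9 to 52.1 M counts in flox). The log2 fold change was -1.74 ± 0.33 (adjusted p = 0.00262 in edgeR), and it was called lower in all 29 alternatives. It was -2.28 ± 0.45 in batch 1 (adjusted p = 0.0441) and -1.24 ± 0.51 in batch 2 (adjusted p = 0.136), and the batches were not shown to differ (interaction 0.99, adjusted p = 0.551).

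Fibroblast markers, like Ndufa4l2, were lower in knockout. Of 6 markers, 5 were lower over both batches, where 7.51% of all genes were lower. Col1a1 stood at -2.04 ± 0.26 and Pdgfra at -0.93 ± 0.20 (adjusted p = 0.000145 and 0.00561 in edgeR). Their summed level was 1386 to 3282 CPM in knockout and 2917 to 5840 CPM in flox libraries of batch 1, and 1493 to 3373 CPM in knockout and 4207 to 5778 CPM in flox libraries of batch 2. Among the knockout libraries the sum was highest in knockout 4 in batch 1 and in knockout 7 in batch 2. These had the lowest Ndufa4l2 of their groups (0.556 and 0.679 CPM). The next lowest were close, at 0.577 CPM in knockout 2 and 0.723 CPM in knockout 6. Few reads carry these values, so the order of the knockout libraries is uncertain. In bulk tissue, fewer cells of a type and less RNA per cell cannot be told apart. The part of the fibroblast difference in the Ndufa4l2 result was not tested.

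The heart and skeletal muscle isoforms Cox6a2, Cox7a1 and Cox8b, which replace Cox6a1, Cox7a2 and Cox8a in striated muscle, varied widely between libraries. Cox6a2 had 1.45, 0.449, 2.77, 58.8, 0.364, 0.343 and 2.34 CPM in knockout libraries 1 to 7, against 37.3, 6.20, 4.70, 8.14, 8.98, 26.96 and 0.996 CPM in flox libraries 1 to 7. The highest of all 14 was knockout 4, and the groups overlapped widely (-1.62 ± 1.37, adjusted p = 0.457 in edgeR). Cox7a1 had 11.6, 9.17, 19.0, 55.7, 7.69, 12.2 and 13.7 CPM in knockout, against 38.3, 41.4, 33.5, 25.9, 19.6, 25.1 and 18.5 CPM in flox (-0.83 ± 0.32, adjusted p = 0.0938). In batch 2 alone Cox6a2 stood just outside the threshold (-3.49 ± 1.05, adjusted p = 0.0566). There Cox7a1 was called lower (-0.99 ± 0.24, adjusted p = 0.0241), as was Cox8b (-2.41 ± 0.71, adjusted p = 0.0499).

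Skeletal muscle markers moved with these isoforms. Over the 14 libraries, log2(CPM + 1) of Cox6a2 followed the mean of 10 muscle markers with Pearson's r = 0.957 and Spearman's rho = 0.969 (permutation p = 1e-05 for both, the smallest that 100000 resamples can give, and 3e-05 adjusted over the 6 coefficients computed). For Cox7a1, r was 0.808 and rho 0.833 (permutation p = 0.00065 and 0.00042, adjusted 0.000975 and 0.00084), and for Cox8b they were 0.667 and 0.662 (permutation p = 0.0101 and 0.0122, adjusted 0.0122 for both). The resamples shuffled all 14 libraries across batch and genotype, so these p-values do not set aside differences by batch or genotype. Without knockout 5 and knockout 2, the 2 libraries farthest from the median marker level, r was 0.951, 0.707 and 0.588 in the same order. Their marker means were 1.75 and 1.77. Knockout 4, with a mean of 8.23, lay almost as far from the median on the high side. It had the highest value of each isoform and was kept, and r without it was not computed. Within batch 1 r was 0.973, 0.938 and 0.913 and within batch 2 it was 0.973, 0.772 and 0.834 (7 libraries each). The summed marker level was 62.5 to 3740.0 CPM in knockout and 396 to 1342 CPM in flox libraries of batch 1, and 66.6 to 893 CPM in knockout and 78.8 to 5712 CPM in flox libraries of batch 2. In batch 2 the median log2 fold change of the 10 markers was -2.84. There 1 of them, the myosin gene Myh2, was called lower (-4.49 ± 1.30, adjusted p = 0.0477 in edgeR), where 5.99% of all genes were lower. The 10 markers include Pvalb, which is also on the list of large-diameter neuron markers. Pvalb made up most of the lowest knockout sums, with 46.6 of 62.5 CPM in knockout 2 and 52.2 of 66.6 CPM in knockout 5. These low ends are therefore not a muscle level alone. Where the sums were highest, Pvalb held 336 of 3740.0 CPM (knockout 4) and 80.1 of 5712 CPM (flox 6). The relation without Pvalb was not tested, nor was the part of muscle tissue in the Cox7a1 and Cox8b calls.

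**Figure D3:**
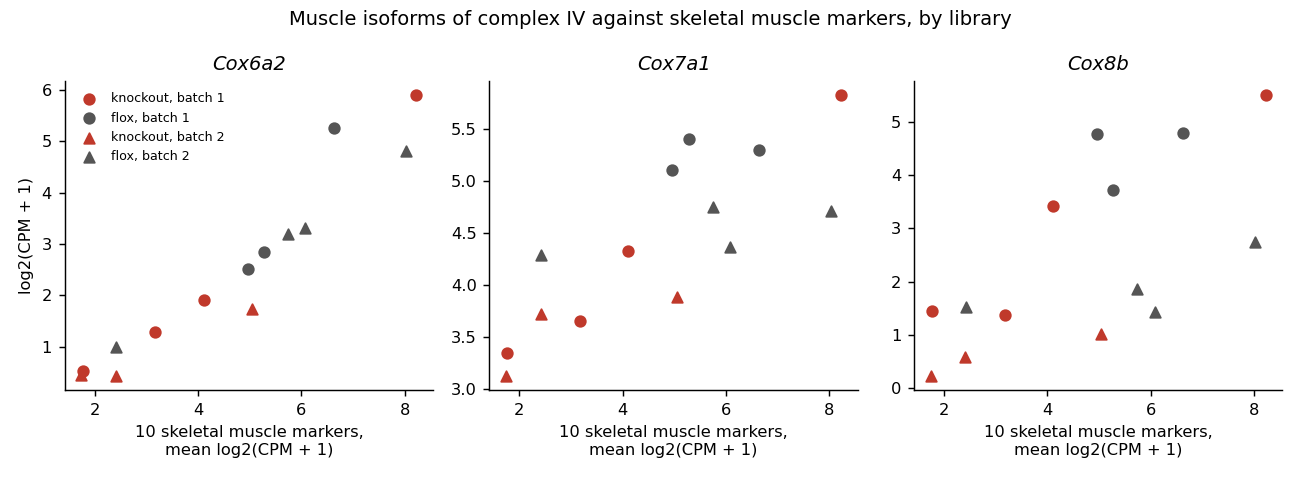
Each point is 1 library, with the mean log2(CPM + 1) of 10 skeletal muscle markers on the horizontal axis and log2(CPM + 1) of Cox6a2, Cox7a1 or Cox8b on the vertical axis; red is knockout, grey is flox, circles are batch 1 and triangles batch 2. The isoforms rise with the markers, with Pearson's r of 0.957, 0.808 and 0.667, and knockout 4 lies at the upper right in all 3 panels, with flox 6 next to it on the horizontal axis.

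Their partners, which most tissues use, were not called. Cox6a1 differed by -0.10 ± 0.13, Cox7a2 by 0.32 ± 0.14 and Cox8a by -0.21 ± 0.12 over both batches (adjusted p = 0.664, 0.144 and 0.252 in edgeR). Of the other isoform pairs, Cox4i1 differed by 0.00 ± 0.12 and Cox4i2 by 0.14 ± 0.32, and Cox6b1 by -0.11 ± 0.12 and Cox6b2 by -0.77 ± 0.32 (adjusted p = 0.991, 0.808, 0.580 and 0.119). Atp5f1e, the epsilon subunit, had the lowest fold change of complex V (-0.30 ± 0.21, adjusted p = 0.358).

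Subunits encoded in mitochondrial DNA were lower in knockout where they were called. Of 13, 6 were lower and 0 higher over both batches (median -0.40), where 7.51% of all genes were lower, and 9 were lower and 0 higher within batch 2 (median -0.69), where 5.99% of all genes were lower; DESeq2 and limma-voom called 0 higher too. In batch 2 mt-Nd5, a core subunit of complex I, had 125, 156 and 160 CPM in knockout libraries 5 to 7, against 320, 317, 312 and 441 CPM in flox libraries 4 to 7, a log2 fold change of -1.24 ± 0.16 (adjusted p = 0.00159 in edgeR). The interaction with batch was called for mt-Nd5 (-1.07 ± 0.21, adjusted p = 0.0260) and mt-Nd6 (-1.14 ± 0.24, adjusted p = 0.0304). Not every gene of the set was lower in batch 2. There mt-Co3, which was not called, had 1149, 1756 and 1825 CPM in knockout 5 to 7. Its flox values were 1558, 1067, 1202 and 1270 CPM. The summed level of the 13 genes was 8922 to 12140 CPM in knockout and 14830 to 18930 CPM in flox libraries of batch 2. Batch 1 had far higher sums, at 73300 to 82090 CPM in knockout and 73990 to 96010 CPM in flox libraries, with 0 of 13 called by edgeR, DESeq2 or limma-voom and none at an unadjusted p under 0.05. Whether nuclear and mitochondrial subunits differ from each other was not tested.

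Other mitochondrial genes were counted against the 7.97% of all genes called higher and 7.51% called lower over both batches, and the 7.22% and 5.99% in batch 2. Of 41 assembly factors, which help to build the complexes, 0 were called by edgeR over both batches (4 at an unadjusted p under 0.05; DESeq2 called 1 and limma-voom 0), and 3 were higher in batch 2: Cox16 (1.11 ± 0.22), Coa6 (0.95 ± 0.23) and Sdhaf3 (0.55 ± 0.15), with adjusted p-values of 0.0118, 0.0233 and 0.0393, a share near that of all genes. Of 16 citric acid cycle genes 0 were called in edgeR (5 at an unadjusted p under 0.05; DESeq2 called 2 higher and limma-voom 0). Of 12 regulators of mitochondrial biogenesis 0 were called by any of the 3 tools, with 0 at an unadjusted p under 0.05 in edgeR and 1 in each of the others. Of 16 genes of mitochondrial dynamics and import 0 were called by any of the 3 tools, with 2, 4 and 2 at an unadjusted p under 0.05 in edgeR, DESeq2 and limma-voom. Of 7 mitochondrial antioxidant genes 1 was higher, the peroxiredoxin Prdx3 (0.27 ± 0.08, adjusted p = 0.0265).

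Of 6 subunits and electron carriers outside the symbol rule, 0 were called over both batches by any of the 3 tools, with 0 at an unadjusted p under 0.05, and 1, the cytochrome c gene Cycs, was higher in batch 2 (0.50 ± 0.13, adjusted p = 0.0327 in edgeR). Glycolysis, the other source of ATP, had 5 of 17 genes higher and 0 lower over both batches, where 7.97% of all genes were higher and 7.51% lower. It was led by the pyruvate kinase Pkm (0.72 ± 0.11), the enolase Eno1 (0.46 ± 0.10) and the lactate dehydrogenase Ldha (0.41 ± 0.10), with adjusted p-values of 0.000589, 0.00716 and 0.0143; DESeq2 and limma-voom called 0 lower too. Cytosolic ribosomal proteins, another set of small abundant transcripts, had 1 higher and 2 lower of 83 over both batches (median -0.14) and 7 higher and 7 lower of 84 in batch 2, where 7.22% of all genes were higher and 5.99% lower.

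Some markers of other cell types differed with genotype as well. Over both batches 7.97% of all genes were called higher and 7.51% lower. All 6 neutrophil markers were higher over both batches, with summed levels of 546 to 1003 CPM in knockout and 40.6 to 90.4 CPM in flox libraries of batch 2, and 5 of 6 myelinating Schwann cell markers were lower. Of 8 sensory neuron markers, 3 were higher and 0 lower (Isl1, Tubb3 and Prph) over both batches, and 2 were higher within batch 2. Of 6 markers of large-diameter neurons 1, Ntrk3, was lower, and a single call among 6 is not set apart from the share of all genes. Over both batches, skeletal muscle, adipocyte, erythroid and spinal cord markers had 0 called by edgeR, DESeq2 or limma-voom and 0 at an unadjusted p under 0.05 in edgeR. Within batch 2, edgeR and DESeq2 each called 1 of these, a skeletal muscle marker, lower, and limma-voom called 0. In batch 2 the summed sensory neuron level was 7902 to 9009 CPM in knockout and 5318 to 6663 CPM in flox libraries, with knockout 5 the highest and knockout 7 the lowest of the 3 knockout sums. The part of these cell types in the subunit results was not tested.

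The fold changes of the subunits went with the base composition of their transcripts. Transcript GC content could be matched for 80 of the 85 tested members. Across these 80 genes, which are not independent replicates and share the same libraries, Spearman's rho between log2 fold change and GC content was -0.62 over both batches, -0.43 in batch 1 and -0.59 in batch 2. Across all genes with a value it was -0.29, -0.13 and -0.33. The members higher in batch 2 had a median GC content of 47.0%, against 52.6% in the members not called and 55.0% in the 3 lower ones. With transcript length, rho over the members was 0.13 over both batches. When the fit took GC content into account, 5 members were called higher and 1 lower of 80 over both batches, and the Cox7b interaction was no longer called (1.17), while that of Ndufc2 was (1.90). The part of base composition in the batch 2 result was not tested beyond this fit.

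**Figure D4:**
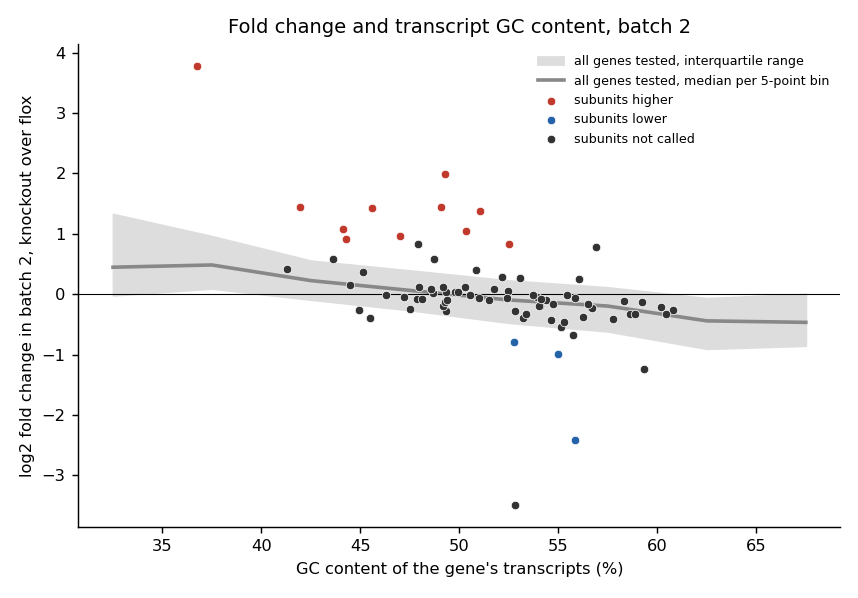
Each point is 1 nuclear-encoded subunit, with the GC content of its transcripts (%) on the horizontal axis and the log2 fold change of knockout over flox in batch 2 on the vertical axis; red and blue points were called higher and lower, and the grey line and band are the median and the interquartile range of all genes tested in bins of 5 points. Subunits called higher lie at 36.7% to 52.5% GC, and the line for all genes falls with GC content as well.

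Promoters were compared as a description only. The members called higher in batch 2 were picked for being higher in the same libraries, so their rising together is not a separate result. RefSeq promoter windows (GRCm38.p6, 250 bases before to 50 after the start) were matched for 67 of the 90 mouse members, 54 by symbol and 13 by an older symbol, giving 72 windows. The 5 shown are those of 4 members called higher in batch 2 that differ in their matches, and of Uqcrc1, called over both batches with like values in each. Capitals mark matches on either strand to GCGCATGCGC with any base at its A (nuclear respiratory factor 1, NRF1), CCGGAAG (ETS factors such as GABP) or AAGATGGCG (YY1), motifs known from genes of the respiratory chain.
Ndufc2 (chr7:97399753-97400052, plus strand): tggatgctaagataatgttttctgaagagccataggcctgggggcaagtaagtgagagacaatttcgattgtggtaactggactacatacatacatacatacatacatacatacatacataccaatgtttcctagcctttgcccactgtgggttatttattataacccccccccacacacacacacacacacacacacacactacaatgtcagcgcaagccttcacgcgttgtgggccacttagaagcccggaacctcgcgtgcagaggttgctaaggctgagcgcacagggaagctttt
Ndufb4 (chr16:37654319-37654618, minus strand): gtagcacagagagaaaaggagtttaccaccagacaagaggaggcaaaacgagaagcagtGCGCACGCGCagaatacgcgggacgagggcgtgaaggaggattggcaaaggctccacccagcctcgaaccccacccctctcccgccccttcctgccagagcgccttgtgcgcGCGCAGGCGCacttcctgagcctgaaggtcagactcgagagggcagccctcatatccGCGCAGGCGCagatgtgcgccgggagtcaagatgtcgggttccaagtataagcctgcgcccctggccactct
Ndufs4 (chr13:114388045-114388344, minus strand): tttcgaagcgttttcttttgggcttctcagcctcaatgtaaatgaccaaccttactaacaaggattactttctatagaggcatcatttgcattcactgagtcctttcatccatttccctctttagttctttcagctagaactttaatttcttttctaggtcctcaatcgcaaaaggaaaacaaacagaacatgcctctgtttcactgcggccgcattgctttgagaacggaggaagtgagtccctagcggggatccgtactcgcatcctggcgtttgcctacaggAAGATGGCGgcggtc
Atp5mg (chr9:44920693-44920992, minus strand): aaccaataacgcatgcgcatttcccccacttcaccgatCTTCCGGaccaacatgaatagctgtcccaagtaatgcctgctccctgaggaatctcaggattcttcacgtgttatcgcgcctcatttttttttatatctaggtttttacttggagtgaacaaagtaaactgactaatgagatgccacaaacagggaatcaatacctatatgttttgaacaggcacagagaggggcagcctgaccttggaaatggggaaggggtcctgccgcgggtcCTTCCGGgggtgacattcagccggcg
Uqcrc1 (chr9:108936398-108936697, plus strand): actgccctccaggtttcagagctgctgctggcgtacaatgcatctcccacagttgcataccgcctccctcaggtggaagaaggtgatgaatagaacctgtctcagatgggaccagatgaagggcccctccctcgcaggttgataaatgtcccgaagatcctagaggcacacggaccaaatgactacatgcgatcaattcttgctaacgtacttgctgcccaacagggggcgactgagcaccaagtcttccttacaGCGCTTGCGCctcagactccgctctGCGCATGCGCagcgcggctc

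Counted from 1 at the 5′ end of the window, the Ndufb4 matches to the NRF1 motif begin at bases 60, 172 and 229, and those of Uqcrc1 at bases 256 and 281. Ndufs4 has 1 match to the YY1 motif at base 286, Atp5mg has 2 to the ETS motif at bases 39 and 275, and these letters do not occur in the Ndufc2 window. Of the 72 member windows, 18 held the NRF1 motif, 16 (22.2%) the ETS motif and 7 (9.72%) the YY1 motif, against 1512 (4.6%), 2910 (8.86%) and 461 (1.4%) of all 32851 windows. The 9 windows of members higher in batch 2 held each motif in 1 case (11.1%), against 17, 15 and 6 of the 63 other member windows. Their median GC content was 49.0%, against 58.3% in the other member windows and 52.7% in all windows. A match is a description of these letters and not a bound site.

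The monkey comparison asks the same of DRG from SADBE-treated skin, with 3 libraries a group. edgeR called 0 of 60 members, in either direction, and 0 of all 17988 genes (0% higher and 0% lower). An unadjusted p under 0.05 was reached by 2 members and by 550 of all genes; DESeq2 and limma-voom also called 0 members. Of the 60 members 45 had a negative fold change, with a median of -0.36 for complex I, -0.50 for complex II and -0.34 for complex V, against -0.01 over all genes. The interquartile range of the members was -0.69 to -0.05, and the median SE of a member was 0.51.

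The monkey libraries disagreed within groups. The median deviation of all 60 members from the vehicle mean was -0.74, -0.20 and -0.10 (log2 CPM) in SADBE libraries 1, 2 and 3, against 0.13, -0.49 and 0.22 in vehicle libraries 1, 2 and 3. SADBE 1 was the lowest and vehicle 2 the next, so the groups overlapped. Without SADBE 1 the median fold change was -0.22, without vehicle 1 it was -0.25 and without vehicle 3 it was -0.25, while without vehicle 2 it was -0.56. In vehicle 1, whose members took 6.75% of TPM, the share was above the 3.83% and 4.33% of the other vehicle libraries and the 3.35% to 4.04% of the SADBE libraries.

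The 2 members with the lowest p were ATP5MK and NDUFA5. ATP5MK had 111, 152 and 153 CPM in SADBE libraries 1 to 3, against 706, 201 and 214 CPM in vehicle libraries 1 to 3. The groups did not overlap, and vehicle 1 stood far above the rest (-1.43 ± 0.59, unadjusted p = 0.0407 and adjusted p = 0.999 in edgeR). Without vehicle 1 the fold change was -0.59. NDUFA5, an accessory subunit of the matrix arm of complex I, had 29.1, 47.2 and 49.6 CPM in SADBE, against 107, 55.6 and 91.0 CPM in vehicle libraries (-1.01 ± 0.44, unadjusted p = 0.0484 and adjusted p = 0.999). In complex II the lowest p was that of SDHB (-0.58 ± 0.42, unadjusted p = 0.199 and adjusted p = 0.999), with 196, 154 and 222 CPM in SADBE, against 329, 277 and 249 CPM in vehicle libraries.

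The members called over both mouse batches that have a monkey row had no call there, where their log2 fold changes were NDUFC2 -0.56 ± 0.53, NDUFS4 -0.91 ± 0.48, NDUFB2 -0.62 ± 0.54, NDUFB4 -0.20 ± 0.44, NDUFA4 -0.59 ± 0.59, ATP5MG -0.77 ± 0.61 and NDUFA4L2 1.43 ± 0.96 (adjusted p = 0.999 each in edgeR). NDUFA4L2 had 1.03, 10.9 and 20.8 CPM in SADBE and 7.46, 2.57 and 2.01 CPM in vehicle libraries, with SADBE 1 the lowest of all 6. Among the related lists, 0 of 21 assembly factors, 0 of 16 citric acid cycle genes and 0 of 16 glycolysis genes were called by edgeR, DESeq2 or limma-voom, with none at an unadjusted p under 0.05 in edgeR. Over the 59 symbols found in both species, levels in vehicle monkeys and flox mice had a Spearman's rho of 0.609 across genes, which are not independent and whose annotations differ. SDHA stood at 1.61 TPM in vehicle monkeys and was listed at 0 in SADBE 1, while mouse Sdha averaged 186 TPM in flox.

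**Figure D5:**
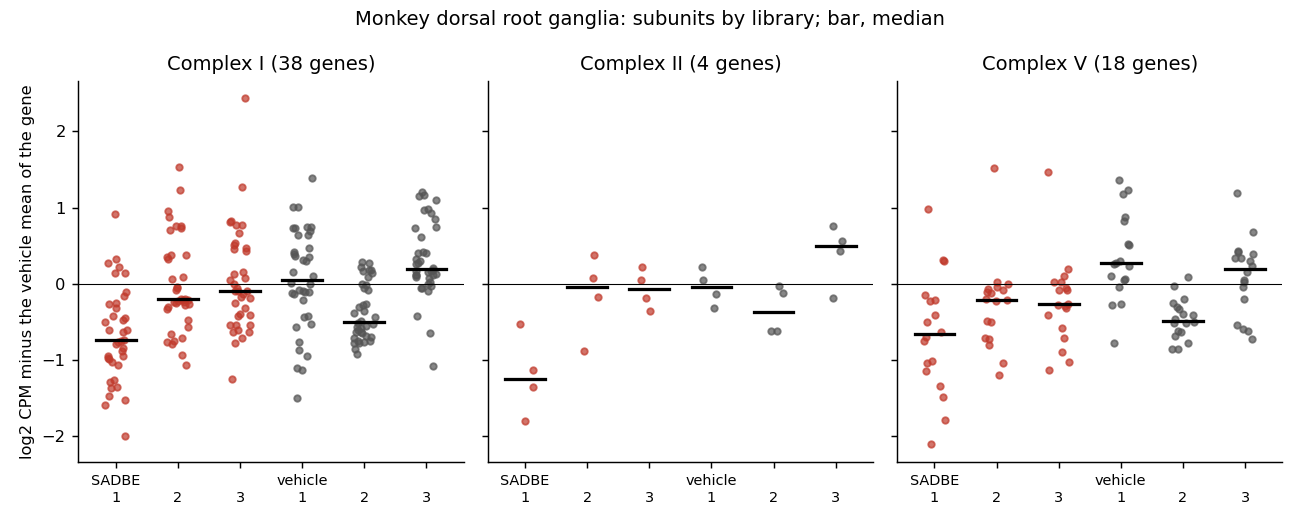
Each point is 1 subunit gene in 1 monkey library, with log2 CPM minus the gene's mean over the vehicle libraries on the vertical axis, by complex; red is SADBE, grey is vehicle, and black bars are medians. SADBE 1 and vehicle 2 have low medians (-0.74 and -0.49 over all members), and the groups overlap.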

How the data were processed

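Fresh frozen mouse and monkey DRG were profiled by RNA sequencing, with RNA purified by a Direct-zol kit, per the labels' protocols. The authors deposited estimated counts per gene and TPM, made with kallisto (version not stated), per the submitters' processing notes, which name the build GRCm38 for every sample, monkeys included. Strandedness is not stated there. The deposited TPM columns of mice summed to 601 to 979 in units of 1000 TPM and were rescaled to the full sum. A row naming no gene held 0.0785% to 0.186% of the mouse counts and was left out.

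The estimated counts were rounded and tested with edgeR 4.0.16 in R 4.3.3 (quasi-likelihood, robust, TMM, filterByExpr with a minimum count of 10 and total of 15, batch as a term), with Benjamini-Hochberg adjustment over all genes tested and a threshold of 0.05. An SE is the fold change divided by the square root of the F statistic. DESeq2 1.42.0, limma 3.58.1 (voom, and log2(TPM + 1) or log2(TPM + 0.1) with genes of mean TPM at least 1) and other scalings, filters, offsets and left-out libraries were alternatives, and the GC correction and, within batch 2, leaving out both knockout 6 and 7 were chosen after seeing the data. The edgeR fit and the offsets were tested on simulated data. Gene positions, GC content and shared 31-base words come from GENCODE M21, which matched 84 of the 90 mouse members.

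The members and lists were chosen with earlier results of these data known. The genes named are, per complex, up to 6 called members of lowest p, the highest and lowest fold change, the most abundant member, the called interactions, the monkey member of lowest p and fixed isoform pairs, and members called in batch 2 were added after their values were seen. Other lists give up to 3 called genes of lowest p. Libraries are numbered as labelled, and nothing in the labels says that they come from separate animals, and the spread that p-values are based on may therefore be technical. The replicate numbers did not pair the samples. No libraries agreed within sampling noise. Some items are not reported here.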

Additional observations from a re-analysis of the deposited data

Results flagged for a closer look

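Among 118 groups of 4 to 7 libraries, 14 had a value that stood apart from the rest of the group by Dixon's criterion. For separate groups chance gives this in about 1 group in 20. Some of these groups share libraries or pool both batches, so that rate is only a guide. In 9 of the 14 the value was knockout 4, whose Cox6a2 counts once within batch 1 and once over all knockout libraries. Within knockout batch 1 it was the high value for Uqcr11 (600.3 CPM), Cox6a2 (58.8 CPM), Atp5mg (557 CPM), Atp5f1e (450.0 CPM) and Atp5mk (1591 CPM), and over all knockout libraries for Cox6a2 (58.8 CPM), Cox7a1 (55.7 CPM), Cox8b (44.6 CPM) and Cox6b2 (8.57 CPM). Knockout 1 was the low value of Sdhb in batch 1 (224 CPM). Flox 4 was the high value in flox batch 2 for Ndufa4 (1591 CPM), Uqcrq (685 CPM) and Cox6b1 (756 CPM), and flox 3 over all flox libraries for Cox4i2 (3.57 CPM).

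The knockout effect differed between batches for Ndufc2 and Cox7b, with an interaction of 1.90 and 1.43 on the log2 scale (adjusted p = 0.0122 and 0.0434 in edgeR). Without knockout 6 and 7, the 2 libraries with Y-linked transcripts, these were 0.99 and 0.60 (adjusted p = 0.196 and 0.556).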

How the results depend on the processing

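The count of 10 members called over both batches was 5 with no filter on low counts, 20 with limma on log2(TPM + 1) or log2(TPM + 0.1) (10 higher, 10 lower), 20 with length-corrected offsets, 6 with GC-corrected offsets, 1 with knockout 6 and 7 left out and 2 with no batch term, and 2 to 16 with 1 library left out. Without knockout 4 the 16 were 6 higher and 10 lower; without flox 3 there were 3 and without flox 5 there were 4. Library totals gave 2 higher and 5 lower. Within batch 1 the count of 1 was 0 with limma-voom, unfiltered TPM and length-corrected offsets, and 0 to 2 with 1 library left out. Within batch 2 the count of 16 was 33 and 35 with limma on log2(TPM + 1) and log2(TPM + 0.1), of which 21 and 22 were lower, 25 with length-corrected offsets, 3 without knockout 6 and 7 (1 higher, 2 lower), and 9 to 19 with 1 library left out; library totals gave 11 higher and 12 lower. The 2 interactions became 5 with DESeq2, 1 with limma-voom, unfiltered TPM and GC correction, 7 with length-corrected offsets, 0 without knockout 6 and 7, and 1 to 12 with 1 library left out. The median of complex II was -0.13 with library totals; the other complex medians moved by less than the spread in 30 alternatives each. In monkeys 0 members were called in all 17 alternatives. The cause of these shifts was not tested.

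With the replicate number as a block, 6 members were called over both batches (1 higher, 5 lower) and 2 within batch 1. Same-numbered mouse libraries of 1 batch correlated at -0.14 to 0.17 and monkey libraries at -0.34 to 0.25, and 3 of 10 correlated best with their own number, so the samples share only a number. The knockout libraries of batch 1, at 12.1 to 14.7 M counts, limit what could be detected there.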
